A study of Mus musculus with 4 samples.

Results

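Solute carriers are membrane proteins that move nutrients, metal ions and metabolites across the plasma membrane and the membranes of organelles, and their genes carry the symbol Slc. The genes described here are those whose symbol starts with Slc, a family number, the letter a and a member number, leaving out Slc7a11, Slc16a3 and Slc2a1. Of 276 such genes on the array 273 were left, and 139 of them, with 180 probes, had values on all 4 arrays, out of 8676 named genes with values on all 4. Of the other 134, 44 had values on some of the arrays and 90 on none, and they are not described. By family, 25 of 55 amino acid transporters, 6 of 22 sugar transporters, 23 of 26 metal transporters and 29 of 35 mitochondrial carriers of the Slc25 family were measured. The other 56 measured genes fall into smaller classes: 16 carriers of inorganic ions, 16 of vitamins, nucleosides, choline or lipids, 11 of organic ions, 5 of nucleotide sugars and 3 of monocarboxylates, beside 3 genes that are named after a carrier but encode a binding protein and 2 of no fixed class.

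The RNA came from RIF-1 cells, a mouse line from a radiation-induced fibrosarcoma, in which Bre1a (Rnf20) or Bre1b (Rnf40) had been knocked down by RNA interference. The proteins of these genes form the ligase that attaches ubiquitin to histone H2B. Bre1a knockdown RNA was hybridised on 1 array against RNA of cells without knockdown and on 1 array against RNA of mock cells, whose knockdown was aimed at GFP, and Bre1b knockdown RNA likewise, giving 4 two-colour arrays. Each array had the knockdown in Cy5 and the control in Cy3, with no swap of the dyes, so that any preference of a probe for 1 dye is part of its ratio. Separate cultures are not named in the labels. The p-values measure only the spread between arrays that is left beside the difference between the controls, which may be technical. On the Bre1a arrays Rnf20 had log2 ratios of -1.60 and -1.35, and on the Bre1b arrays Rnf40 had -1.49 and -1.23. A ratio gives no level, so the cell type could not be checked by its markers. All 5 fibroblast markers looked for and 3 of 4 epithelial ones had values on all 4 arrays, and 0 of 6 leukocyte and 0 of 4 endothelial markers did. Of the epithelial markers Krt8 and Krt18 fell on the Bre1a arrays (-1.25 ± 1.11 and -1.21 ± 0.02, n = 2, limma adjusted p = 0.0212 each). Krt8 and Epcam were called lower on the Bre1b arrays (-0.71 ± 1.28 and -0.39 ± 0.53, adjusted p = 0.0124 and 0.0147). There Krt8 had 0.20 against no knockdown and -1.62 against mock, and Epcam had -0.76 and -0.01. Both genes differed between the controls, by 1.69 and -0.80 as mock minus no knockdown (limma adjusted p = 0.0475 each). Of the fibroblast markers Pdgfra and Pdgfrb fell in both knockdowns (-0.86 ± 0.54 and -0.86 ± 0.32 for Bre1a, -1.30 ± 0.28 and -0.59 ± 0.25 for Bre1b), Col1a1 rose on the Bre1a arrays (0.48 ± 0.20, adjusted p = 0.0225), and Col1a2 and Vim passed in neither. The part of these markers in the transporter values was not tested.

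Most solute carriers work as exchangers, as cotransporters driven by an ion gradient, or as facilitators that let a substrate run down its own gradient, without splitting ATP themselves. Proteins of the Slc39 family bring zinc, iron or manganese into the cytosol, and those of the Slc30 family carry zinc out of it. Heterodimers of the heavy chain Slc3a2 with a light chain of the Slc7 family exchange large amino acids, and Slc25 proteins link the cytosol with the mitochondrial matrix. Growing tumour cells are known to depend on such carriers for glutamine, essential amino acids, glucose and iron.

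Values are given as deposited, on the log2 scale and as knockdown over control, with probes of a gene averaged. A mean carries its SD over 2 arrays (n = 2), and that SD includes the difference between the controls. A gene is said to have risen or fallen where limma, with a term for the control and Benjamini-Hochberg adjustment over all 8676 genes, gave an adjusted p under 0.05. On each array 702 to 843 spots shared 1 value, and the 3 members Slc11a1, Slc25a3 and Slc25a5 lay within 0.002 of it on all 4 arrays, so that their spots may hold no measured difference.

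The zinc importer Slc39a8 and the zinc exporter Slc30a1 were the metal carriers that rose in both knockdowns by the largest mean on the Bre1a arrays. Slc30a1 is a textbook target of the metal-responsive factor that binds metal response elements, and the promoters of these genes are shown for the letters of that element. The sequences are RefSeq windows of the mouse assembly GRCm38.p6 that run from 250 bases before to 50 bases after an annotated start, written 5′ to 3′ on the strand of the gene. Slc30a1 lies at chr1:191906531-191906830 (plus strand) and Slc39a8, at the one of its annotated starts whose window holds a match, at chr3:135825407-135825706 (plus strand). Capitals mark TGCACNC or TGCGCNC, or their reverse complement, where N is any base.
Slc30a1: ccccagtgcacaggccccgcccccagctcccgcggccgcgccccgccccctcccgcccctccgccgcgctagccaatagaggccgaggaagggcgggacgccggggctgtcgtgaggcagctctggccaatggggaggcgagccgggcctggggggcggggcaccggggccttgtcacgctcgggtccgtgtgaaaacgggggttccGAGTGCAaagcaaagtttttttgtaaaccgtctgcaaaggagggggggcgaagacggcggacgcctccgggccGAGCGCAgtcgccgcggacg
Slc39a8: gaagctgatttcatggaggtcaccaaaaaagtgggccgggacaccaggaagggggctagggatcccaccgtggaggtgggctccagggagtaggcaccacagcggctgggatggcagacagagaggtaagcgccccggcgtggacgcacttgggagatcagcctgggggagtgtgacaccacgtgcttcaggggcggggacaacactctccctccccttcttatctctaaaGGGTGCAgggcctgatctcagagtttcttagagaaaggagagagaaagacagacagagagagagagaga

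Windows were at hand for 109 of the 139 members, 155 windows in all. The Slc30a1 window holds 2 matches, both on the reverse strand, and the Slc39a8 window holds 1. Among windows of metal carriers 11 of 22 (50%) hold a match, against 8444 of 32851 (25.7%) of all promoter windows. A match also stands in 5 of 9 windows of sugar transporters (55.6%) and in 55 of 155 windows of all transporters (35.5%), beside 8 of 31 of Slc25 genes (25.8%) and 3 of 26 of amino acid carriers (11.5%). Windows of metal carriers are also richer in G and C (61.5% on average, against 53.8% over all windows), as are windows with a match (60.1%, against 51.6% without), so that base composition moves with the count. The 10 metal carriers with a match had a median log2 ratio of 0.06 on the Bre1a arrays and -0.04 on the Bre1b arrays, and the 8 with windows and no match had -0.15 and 0.06. A match is a run of letters and not a measured binding site.

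**Figure D1:**
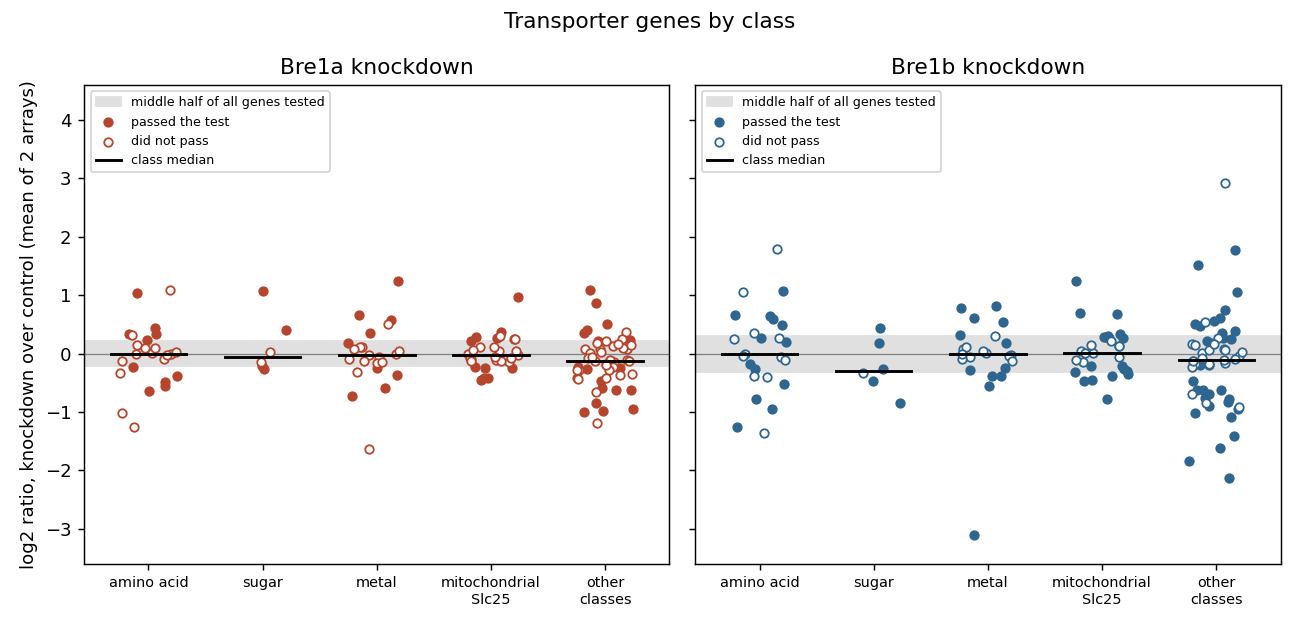
Mean log2 ratio of knockdown over control (vertical axis, 2 arrays each) for the 139 solute carrier genes by class, for Bre1a knockdown on the left and Bre1b knockdown on the right. Filled points passed the limma test, open points did not, black lines are class medians and the grey band holds the middle 50% of all 8676 genes; the medians of all 5 groups lie inside that band in both panels, while single genes reach 1.25 and -1.63 on the Bre1a side and 2.92 and -3.11 on the Bre1b side.

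As a whole the transporter genes moved about as often as other genes. On the Bre1a arrays 26 of 139 rose and 29 fell, 39.6% in all, against 40.9% of all genes tested (21.1% higher and 19.9% lower). On the Bre1b arrays 38 rose and 42 fell, 57.6% in all, against 60.4% of all genes (32.3% higher and 28.2% lower). The median log2 ratio over the members was -0.06 for Bre1a and -0.04 for Bre1b, beside 0.03 and 0.02 over all genes. The members at least 2-fold away from both controls in 1 direction were few. On the Bre1a arrays they were Slc39a8 and Slc45a3, both higher (0.484% of all genes were), with 0 members lower (1.81% of all genes). On the Bre1b arrays Slc14a1, Slc23a3, Slc25a25 and Slc3a1 were higher (0.83% of all genes) and Slc14a2, Slc19a1, Slc22a18, Slc40a1, Slc44a2 and Slc9a9 lower (3.17% of all genes). After scaling the arrays to 1 spread the counts were 14 higher and 19 lower for Bre1a, and 20 and 25 for Bre1b. Over all 8676 genes they were then 849 and 1094 for Bre1a, and 1412 and 1454 for Bre1b. The calls rest on the term for the control. Without it limma called 0 members for Bre1a. At an unadjusted p under 0.05 it had 12 higher and 21 lower, against 960 and 1118 of all 8676 genes. For Bre1b it called 1 higher (Slc25a25, adjusted p = 0.0406) and 3 lower (Slc19a1, 0.0406, Slc22a18, 0.0476, and Slc9a3r1, 0.0496). Over all genes the fit without the control term called 1 higher and 1 lower for Bre1a, and 37 and 125 for Bre1b. Leaving out an array, which also drops that term, lost most of the calls for both knockdowns, among members as over all genes. Such a fit leaves 1 array in an arm, so its calls are not counted here.

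Among metal carriers, genes rose and fell in about equal numbers within each knockdown. Of the 23 measured, 5 rose and 4 fell on the Bre1a arrays (39.1%, against 40.9% of all genes), and 6 rose and 6 fell on the Bre1b arrays (52.2%, against 60.4%). The class medians were -0.02 and -0.01. Slc39a8, which carries zinc, manganese and iron into cells, stood at 1.21 against no knockdown and 1.28 against mock on the Bre1a arrays, and at 0.63 and 0.59 on the Bre1b arrays. All 4 values were high and the control made little difference to them. The mean was 1.25 ± 0.05 for Bre1a (2.38-fold, n = 2, limma adjusted p = 0.0212) and 0.61 ± 0.03 for Bre1b (1.53-fold, adjusted p = 0.0102). These values come from 1 of its 2 probes, the one with values on all 4 arrays. With values on 3 or more arrays, which adds its other probe, the Bre1b mean was 0.46 (adjusted p = 0.0513). Its close relative Slc39a14 had 0.55 and 0.60 on the Bre1a arrays, and -0.20 and -0.05 on the Bre1b arrays. Its 2 probes both lay above 0 on the Bre1a arrays, and it rose there only (0.58 ± 0.03, adjusted p = 0.0227). The Bre1b mean of -0.12 ± 0.11 did not pass (adjusted p = 0.106), although 1 of its probes taken alone did (-0.22, adjusted p = 0.0392).

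Slc30a1, the zinc exporter of the plasma membrane, had log2 ratios of 0.33 against no knockdown and 1.01 against mock on the Bre1a arrays, and of 0.48 and 1.16 on the Bre1b arrays. The values were positive on all 4 arrays, and higher against mock in both knockdowns. It rose by 0.67 ± 0.48 for Bre1a (1.59-fold, n = 2, limma adjusted p = 0.0212) and by 0.82 ± 0.49 for Bre1b (1.76-fold, adjusted p = 0.00944). Slc39a6, a zinc importer, had -0.30 and 0.17 on the Bre1a arrays and 0.52 and 1.05 on the Bre1b arrays. It rose on the Bre1b arrays (0.78 ± 0.37, adjusted p = 0.00944) and had values of opposite sign on the Bre1a arrays (-0.07 ± 0.33, adjusted p = 0.253). Slc30a6, which acts in the Golgi, had 0.17 and 0.19 on the Bre1a arrays and 0.53 and 0.55 on the Bre1b arrays. It rose in both knockdowns (limma adjusted p = 0.0492 and 0.00996). For Bre1a it did not pass with centred arrays (adjusted p = 0.0638) or 1 probe per gene (adjusted p = 0.0555). As it has 1 probe, its value was unchanged in the latter and only the fit over all genes differed.

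Ferroportin, the cellular iron exporter encoded by Slc40a1, gave the lowest Bre1b mean of all members. It stood at -2.66 against no knockdown and -3.55 against mock on the Bre1b arrays, a mean of -3.11 ± 0.63 (8.61-fold lower, n = 2, limma adjusted p = 0.0271). After scaling to 1 spread it did not pass (-2.79, adjusted p = 0.0676). On the Bre1a arrays its 1 probe had -0.05 against no knockdown and -3.22 against mock, so these arrays disagreed (mean -1.63 ± 2.24, adjusted p = 0.102). The iron importer Slc11a2 had 0.19 and -0.37 on the Bre1a arrays and 0.42 and 0.18 on the Bre1b arrays, and passed in neither knockdown (adjusted p = 0.404 and 0.0628). Slc48a1, which moves heme, rose on the Bre1a arrays with 0.47 and 0.23 (0.35 ± 0.17, adjusted p = 0.0259), and had 0.09 and -0.11 on the Bre1b arrays. Other metal carriers fell. Slc39a11, a further member of the Slc39 family, had -0.38 and -0.78 on the Bre1a arrays and -0.34 and -0.77 on the Bre1b arrays, nearly the same pair of values in each knockdown (adjusted p = 0.022 and 0.00992). Slc41a2, a magnesium transporter, had -0.96 and -0.49 on the Bre1a arrays and -0.53 and -0.25 on the Bre1b arrays (adjusted p = 0.0228 and 0.0217). Slc39a10 fell on the Bre1a arrays (-0.37 and -0.36, adjusted p = 0.0249) and stood at -0.03 and -0.04 on the Bre1b arrays, and 1 of its probes taken alone did not pass for Bre1a (adjusted p = 0.0535). After scaling, the calls of Slc48a1 and Slc30a6 for Bre1a (adjusted p = 0.0505 and 0.113) and of Slc41a2 for Bre1b (adjusted p = 0.0683) were lost as well.

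Other genes of metal handling were measured for 10 of 16 listed. On the Bre1a arrays 2 rose and 1 fell (30%, against 40.9% of all genes), and on the Bre1b arrays 3 rose and 2 fell (50%, against 60.4%). The transferrin receptor Tfrc, through which cells take up iron, had 0.65 and 1.02 on the Bre1a arrays and 0.97 and 1.27 on the Bre1b arrays, and rose in both (adjusted p = 0.0212 and 0.00944). Ceruloplasmin (Cp), a copper enzyme that oxidises exported iron, had -2.10 and -2.65 on the Bre1a arrays and -0.63 and -1.26 on the Bre1b arrays, and fell in both (adjusted p = 0.0212 and 0.00944). Of the zinc-binding metallothioneins, Mt2 fell on the Bre1b arrays (-0.49 and -0.87, adjusted p = 0.0138) and had 0.17 and 0.06 on the Bre1a arrays, and Mt1 passed in neither knockdown. The ferritin genes Fth1 and Ftl1 lay at the shared value on the arrays. Mt1 lay within 0.002 of it on the Bre1a array against no knockdown and the Bre1b array against mock.

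**Figure D2:**
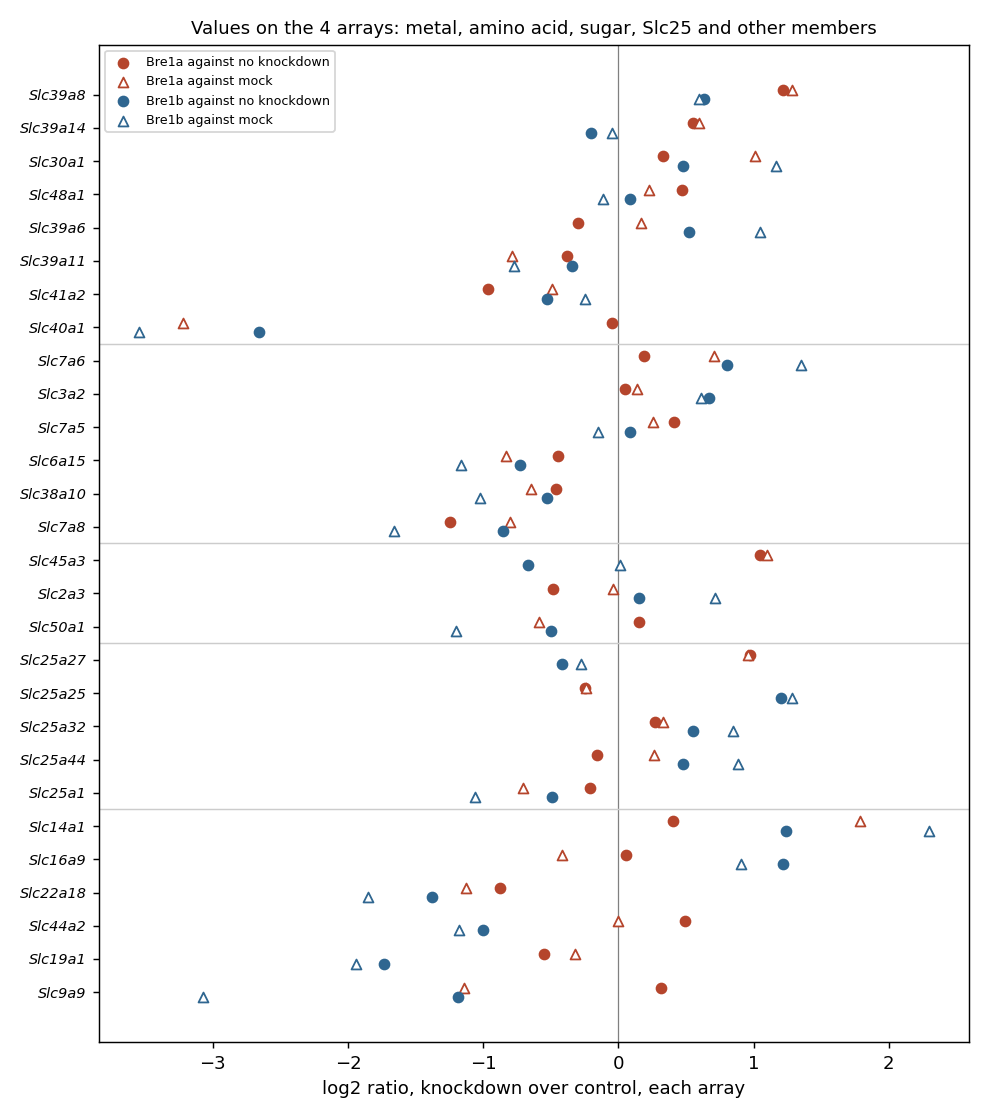
Log2 ratio of knockdown over control on each of the 4 arrays (horizontal axis) for 28 solute carrier genes, in blocks of metal, amino acid, sugar, Slc25 and other carriers from top to bottom. Red marks are Bre1a and blue marks Bre1b arrays, circles are values against no knockdown and triangles values against mock; the 4 values of Slc39a8 lie from 0.59 to 1.28, those of Slc22a18 from -1.85 to -0.88, and Slc40a1 spans -3.55 to -0.05.

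Amino acid carriers likewise moved in both directions. Of 25 measured, 5 rose and 5 fell on the Bre1a arrays (40%, against 40.9% of all genes), and 7 rose and 6 fell on the Bre1b arrays (52%, against 60.4%), with class medians of 0.00 and -0.01. The heavy chain Slc3a2 had 0.05 against no knockdown and 0.14 against mock on the Bre1a arrays, and 0.67 and 0.61 on the Bre1b arrays. It rose on the Bre1b arrays only (0.64 ± 0.05, 1.56-fold, n = 2, limma adjusted p = 0.0109, beside 0.237 for Bre1a), and its 2 probes lay between 0.61 and 0.73 there. Its light chains did not follow 1 pattern. Slc7a6, which exchanges basic for neutral amino acids, had 0.19 and 0.70 on the Bre1a arrays and 0.80 and 1.35 on the Bre1b arrays, and rose in both (1.08 ± 0.39 for Bre1b, 2.11-fold, adjusted p = 0.00944, and 0.45 ± 0.37 for Bre1a, adjusted p = 0.0233, or 0.0551 after scaling). Slc7a5, the light chain for leucine and other large neutral amino acids, rose on the Bre1a arrays (0.41 and 0.26, adjusted p = 0.0289) and had 0.08 and -0.15 on the Bre1b arrays (adjusted p = 0.511). Slc7a8, a light chain of similar substrates, had -1.24 and -0.80 on the Bre1a arrays and -0.86 and -1.66 on the Bre1b arrays. All 4 values were low, and it fell by the test on the Bre1b arrays (-1.26 ± 0.57, adjusted p = 0.0464, or 0.0536 after scaling) and not on the Bre1a arrays (-1.02 ± 0.31, adjusted p = 0.0828).

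The glutamine carrier Slc1a5 passed in neither knockdown, with 0.04 and 0.26 on the Bre1a arrays and -0.14 and 0.01 on the Bre1b arrays (adjusted p = 0.0758 and 0.266). With 1 probe per gene it had 0.38 and -0.32 in the mean and passed in opposite directions (adjusted p = 0.0375 and 0.0345), so its probes disagree. Slc38a2, which is known to be induced when amino acids are scarce, had 0.21, 0.24, 0.27 and 0.27 on the 4 arrays and rose slightly in both knockdowns (adjusted p = 0.0381 and 0.0196), but in neither after scaling (0.0755 and 0.0692) or with 1 probe per gene (0.0767 and 0.0679). Slc6a15, a transporter of branched-chain amino acids and proline, had -0.45 and -0.83 on the Bre1a arrays and -0.73 and -1.16 on the Bre1b arrays. It fell in both knockdowns, by 0.64 ± 0.27 (adjusted p = 0.0217) and by 0.95 ± 0.31 (adjusted p = 0.00944) on the log2 scale. Slc38a10 fell in both too, with -0.47 and -0.64 on the Bre1a arrays and -0.53 and -1.03 on the Bre1b arrays (adjusted p = 0.0333 and 0.0135), and so did the glycine transporter Slc6a9, with -0.49 and -0.48, and -0.16 and -0.21 (adjusted p = 0.0228 and 0.0397). Slc38a7, a glutamine carrier of lysosomes, had 0.49 and 1.59 on the Bre1a arrays and rose there (1.04 ± 0.78, adjusted p = 0.0418), while the Bre1b arrays had -0.26 and 0.05 (adjusted p = 0.655). The taurine transporter Slc6a6 fell on the Bre1a arrays (-0.42 and -0.35, adjusted p = 0.0242) and rose on the Bre1b arrays (0.17 and 0.24, adjusted p = 0.03). After scaling, Slc6a9 and Slc6a6 did not pass for Bre1b (adjusted p = 0.151 each).

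Several amino acid carriers had wide spreads and passed in neither knockdown. Slc3a1, the heavy chain known from the kidney, had -2.92 and 0.40 on the Bre1a arrays and 1.96 and 1.62 on the Bre1b arrays, from 1 probe. The 2 probes of Slc16a10, an aromatic amino acid carrier, disagreed, and 1 of them had -5.54 against no knockdown on the Bre1b array, where the other had 0.08. Of 18 listed genes of amino acid supply 16 were measured, and 6 rose and 3 fell on the Bre1a arrays (56.2%, against 40.9% of all genes) and 4 rose and 3 fell on the Bre1b arrays (43.8%, against 60.4%). Asparagine synthetase (Asns) had 0.57 and 0.74 on the Bre1a arrays and 0.28 and 0.42 on the Bre1b arrays, and rose in both (adjusted p = 0.0212 and 0.0139). The serine synthesis gene Psat1 also rose in both (0.65 ± 0.18 for Bre1a and 0.25 ± 0.13 for Bre1b). The transaminase Gpt2 fell in both (-0.41 ± 0.33 and -0.87 ± 0.55, adjusted p = 0.0467 and 0.0118).

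Only 6 sugar transporters were measured. On the Bre1a arrays 2 rose and 2 fell (66.7%, against 40.9% of all genes), and on the Bre1b arrays 2 rose and 3 fell (83.3%, against 60.4%), shares that 1 gene would move a long way. Slc45a3, a proton-coupled sugar carrier, had 1.05 against no knockdown and 1.10 against mock on the Bre1a arrays and rose there (1.07 ± 0.04, 2.10-fold, n = 2, limma adjusted p = 0.0316). The Bre1b arrays, at -0.67 and 0.01, differed from each other (adjusted p = 0.154). The neuronal-type glucose transporter Slc2a3 had -0.48 and -0.04 on the Bre1a arrays and 0.15 and 0.72 on the Bre1b arrays, so the knockdowns lay on opposite sides of 0. It fell on the Bre1a arrays (-0.26 ± 0.31, adjusted p = 0.0421, or 0.0518 with arrays centred on their medians) and rose on the Bre1b arrays (0.43 ± 0.40, adjusted p = 0.0139), and after scaling it passed in neither (adjusted p = 0.068 and 0.0551). Slc50a1, a sugar facilitator, had 0.15 and -0.59 on the Bre1a arrays and -0.50 and -1.20 on the Bre1b arrays. It fell on the Bre1b arrays (-0.85 ± 0.49, adjusted p = 0.00944), and its call on the Bre1a arrays (-0.22 ± 0.52, adjusted p = 0.0402) was lost after scaling (adjusted p = 0.255). Slc37a3 of the sugar phosphate family rose in both knockdowns (0.39 and 0.42 for Bre1a, 0.14 and 0.24 for Bre1b, adjusted p = 0.0249 and 0.0419, the second 0.15 after scaling). The intracellular glucose transporter Slc2a8 (-0.35 and -0.59) and the glucose 6-phosphate carrier Slc37a4 (-0.07 and -0.47) fell on the Bre1b arrays (adjusted p = 0.0311 and 0.0226), with -0.20 and -0.10, and 0.18 and -0.14, on the Bre1a arrays (adjusted p = 0.247 and 0.701). For Bre1b, Slc2a8 did not pass with 1 probe per gene (adjusted p = 0.0863), nor Slc37a4 after scaling (adjusted p = 0.0947).

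Genes that act on sugar after or around uptake were measured for 8 of 12 listed, and 0 rose and 4 fell on the Bre1a arrays (50%, against 40.9% of all genes, 21.1% higher and 19.9% lower) and 1 rose and 3 fell on the Bre1b arrays (50%, against 60.4%, 32.3% higher and 28.2% lower). At an unadjusted p under 0.05 limma also found 0 higher and 4 lower for Bre1a. Hexokinase 2 (Hk2), which phosphorylates glucose, had -0.68 and -0.74 on the Bre1a arrays and 0.36 and 0.26 on the Bre1b arrays. Txnip, which removes glucose transporters from the cell surface, fell on the Bre1a arrays (-0.69 and -1.05, adjusted p = 0.0223) and had 0.23 and 0.09 on the Bre1b arrays (adjusted p = 0.114).

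In the mitochondrial Slc25 family 6 of 29 measured genes rose and 6 fell on the Bre1a arrays (41.4%, against 40.9% of all genes), and 9 rose and 10 fell on the Bre1b arrays (65.5%, against 60.4%). Medians were -0.03 and 0.02, and the middle 50% of its genes lay from -0.13 to 0.22 for Bre1a and from -0.27 to 0.27 for Bre1b. Slc25a25, a calcium-regulated carrier of ATP-magnesium and phosphate, stood apart on the Bre1b arrays. It had -0.24 and -0.24 on the Bre1a arrays, and 1.20 against no knockdown and 1.29 against mock on the Bre1b arrays. It rose 2.37-fold on the Bre1b arrays (1.24 ± 0.06, n = 2, limma adjusted p = 0.00944) and fell on the Bre1a arrays (-0.24, adjusted p = 0.0393, or 0.153 after scaling). The other calcium-regulated carriers of this kind went their own ways. Slc25a23 fell in both knockdowns (-0.43 and -0.41, and -0.55 and -0.41, adjusted p = 0.0262 and 0.0126), and Slc25a24 rose in both (0.22 and 0.34, and 0.20 and 0.37, adjusted p = 0.0314 and 0.019, or 0.0572 and 0.0677 after scaling).

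Slc25a27, an uncoupling protein best known from neurons, had 0.97 and 0.96 on the Bre1a arrays and -0.42 and -0.28 on the Bre1b arrays. It rose on the Bre1a arrays (1.95-fold, limma adjusted p = 0.0212) and fell on the Bre1b arrays (-0.35 ± 0.10, adjusted p = 0.0219, or 0.217 with 1 probe per gene and 0.141 after scaling). The close agreement of its Bre1a means hides a difference between its 2 probes, which had 1.79 and 1.05 in the one case and 0.16 and 0.87 in the other. The citrate carrier Slc25a1, which supplies citrate for fatty acid and sterol synthesis, had -0.21 and -0.71 on the Bre1a arrays and -0.49 and -1.06 on the Bre1b arrays. It fell in both (-0.46 ± 0.35, adjusted p = 0.0237, and -0.78 ± 0.41, adjusted p = 0.00944), with the lower value against mock each time. The aspartate and glutamate carrier Slc25a12 also fell in both (-0.32 and -0.53, and -0.21 and -0.43, adjusted p = 0.0236 and 0.0149, the second 0.057 after scaling). Slc25a32, the folate and flavin carrier, had 0.27 and 0.33 on the Bre1a arrays (adjusted p = 0.0572, or 0.0427 with 1 probe per gene) and rose on the Bre1b arrays with 0.55 and 0.85 (0.70 ± 0.21, adjusted p = 0.0123). Slc25a44, which carries branched-chain amino acids, had -0.15 and 0.26 on the Bre1a arrays and rose on the Bre1b arrays with 0.48 and 0.88 (0.68 ± 0.29, adjusted p = 0.00944). Of 13 listed membrane partners 12 were measured, and 2 rose and 0 fell on the Bre1a arrays (16.7%, against 40.9% of all genes, with 5 and 0 at an unadjusted p under 0.05 in limma) and 4 rose and 4 fell on the Bre1b arrays (66.7%, against 60.4%). Of these partners Vdac1 and Vdac2 lay within 0.002 of the shared value on both arrays against mock. Vdac1 and Vdac3 did so on the Bre1b array against no knockdown, so these values may hold no measured difference. The fatty acid import enzymes Cpt1a (0.58 and 0.50) and Cpt2 (-0.50 and -0.78) were among the genes that rose and fell on the Bre1b arrays (adjusted p = 0.013 and 0.0118).

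Outside these classes 8 of 56 genes rose and 12 fell on the Bre1a arrays (35.7%, against 40.9% of all genes), and 14 rose and 17 fell on the Bre1b arrays (55.4%, against 60.4%). The reduced folate carrier Slc19a1 had -0.55 and -0.32 on the Bre1a arrays, and -1.73 against no knockdown and -1.94 against mock on the Bre1b arrays. It fell 3.57-fold on the Bre1b arrays (-1.84 ± 0.15, n = 2, limma adjusted p = 0.00944), and its Bre1a mean of -0.43 ± 0.16 did not pass (adjusted p = 0.0672, or 0.0458 with centred arrays and 0.0369 after scaling). Its relative Slc19a2, which carries thiamine, rose in both knockdowns (0.15 and 0.29, and 0.72 and 0.78, adjusted p = 0.0443, or 0.131 after scaling, and 0.00944). The choline transporter-like gene Slc44a2 had 0.49 and 0.00 on the Bre1a arrays (adjusted p = 0.111) and fell on the Bre1b arrays with -1.005 and -1.18 (-1.09 ± 0.12, 2.13-fold, adjusted p = 0.0105). Slc23a2, a vitamin C transporter, rose in both with 0.56 and 0.44, and 0.61 and 0.51 (adjusted p = 0.0223 and 0.00992). Its relative Slc23a3 had -1.56, 2.32, 3.53 and 2.31 on the 4 arrays from 1 probe, and passed in neither knockdown (adjusted p = 0.798 and 0.127).

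The urea transporters Slc14a1 and Slc14a2 are neighbouring genes and moved apart on the Bre1b arrays. Slc14a1, measured by 3 probes, had 0.40 against no knockdown and 1.79 against mock on the Bre1a arrays, and 1.24 and 2.30 on the Bre1b arrays. It rose in both knockdowns (1.09 ± 0.98, 2.13-fold, adjusted p = 0.0227, and 1.77 ± 0.75, 3.41-fold, adjusted p = 0.00944), with the higher value against mock. Slc14a2 had -0.37 and -0.20 on the Bre1a arrays (adjusted p = 0.198) and fell on the Bre1b arrays with -1.78 and -1.03 (-1.41 ± 0.53, 2.65-fold, adjusted p = 0.0128). There were 5 pairs of neighbouring genes among the members. Of the carnitine transporter family, Slc22a5 stood at -0.47 ± 0.15 on the Bre1a arrays and 0.01 ± 0.17 on the Bre1b arrays, and Slc22a4 at -0.14 ± 0.06 and -0.70 ± 0.01, with Slc22a21 between them in the genome at -0.36 ± 0.35 and 0.03 ± 0.20. The fall of Slc22a5 (adjusted p = 0.0228) rests on averaging 2 probes that disagree, since with 1 probe per gene its Bre1a mean was 0.19. The glutamine carriers Slc38a1 and Slc38a2 form another pair, and both rose on the Bre1b arrays (0.67 ± 0.40 and 0.27 ± 0.01). Slc16a11 and Slc16a13 make up the last, and Slc16a13 fell in both knockdowns (-1.26 and -0.71 on the Bre1a arrays, -0.82 and -0.73 on the Bre1b arrays, adjusted p = 0.0265 and 0.0211).

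Slc22a18, an organic cation carrier encoded in an imprinted region, had -0.88 and -1.13 on the Bre1a arrays and -1.38 and -1.85 on the Bre1b arrays. It fell 2.00-fold on the Bre1a arrays (SD 0.18 on the log2 scale, limma adjusted p = 0.022). On the Bre1b arrays it fell 3.07-fold (-1.62 ± 0.33, adjusted p = 0.00944). The Bre1a SD hides a difference between its 2 probes, which had -0.30 and -1.36 in the one case and -1.455 and -0.90 in the other. Slc16a9, of the monocarboxylate family, had 0.06 and -0.42 on the Bre1a arrays (adjusted p = 0.0881) and rose on the Bre1b arrays with 1.22 and 0.91 (1.06 ± 0.22, 2.09-fold, adjusted p = 0.00944). The serotonin transporter Slc6a4 was called higher in both knockdowns (adjusted p = 0.0212 and 0.00944), but its values were -0.07 and 1.82 on the Bre1a arrays and 0.56 and 2.48 on the Bre1b arrays, so its rise was mainly against mock.

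Among 16 carriers of inorganic ions 0 rose and 5 fell on the Bre1a arrays (31.2%, against 40.9% of all genes, with 0 and 6 at an unadjusted p under 0.05 in limma), and 2 rose and 5 fell on the Bre1b arrays (43.8%, against 60.4%). The endosomal sodium and proton exchanger Slc9a9 had 0.31 and -1.14 on the Bre1a arrays (adjusted p = 0.0726, or 0.0494 with arrays centred on their medians), and -1.18 and -3.08 on the Bre1b arrays, where it fell 4.37-fold (-2.13 ± 1.34, limma adjusted p = 0.00944). The sodium and calcium exchanger Slc8a1 fell in both knockdowns (-0.32 and -0.93, and -0.79 and -1.11, adjusted p = 0.0277, or 0.0538 after scaling, and 0.0108), and so did the sulfate carrier Slc26a11 (-0.85 and -0.42, and -1.44 and -0.57, adjusted p = 0.0397 and 0.0137). The phosphate importer Slc20a1 had -0.47 and 0.00 on the Bre1a arrays and 0.26 and 0.69 on the Bre1b arrays, falling in the one (adjusted p = 0.0372) and rising in the other (adjusted p = 0.0108). After scaling neither passed (adjusted p = 0.115 and 0.0667). The scaffold proteins Slc9a3r1 and Slc9a3r2, which bind the sodium and proton exchanger and are no carriers themselves, fell in both knockdowns. Slc9a3r1 had -0.58 and -0.61 on the Bre1a arrays and -0.99 and -0.82 on the Bre1b arrays (limma adjusted p = 0.0249 and 0.00992). Slc9a3r2 had -1.09 and -0.80, and -0.90 and -0.74 (adjusted p = 0.0212 and 0.00944). The 2 probes of Slc9a3r2 differed, with -1.74 and -0.68 on the Bre1a arrays in the one case and -0.445 and -0.92 in the other.

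Pumps driven by ATP, which are no solute carriers, were set beside them. Of 23 measured pumps 4 rose and 5 fell on the Bre1a arrays (39.1%, against 40.9% of all genes), and 3 rose and 11 fell on the Bre1b arrays (60.9%, against 60.4%, 32.3% higher and 28.2% lower), with medians of -0.13 and -0.11. The cholesterol exporter Abca1 fell on the Bre1b arrays (-0.95 and -1.70, adjusted p = 0.0107), and had -0.10 and -0.42 on the Bre1a arrays (adjusted p = 0.141). The drug exporter Abcb1b rose in both knockdowns (0.35 and 0.53, and 0.59 and 0.84, adjusted p = 0.0237 and 0.00944).

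The knockdowns were then set against each other, Bre1a minus Bre1b within each control, where the control RNA cancels if it was the same. Of the 139 members 16 were higher and 18 lower after Bre1a knockdown than after Bre1b knockdown (24.5%, against 24.9% of all genes, 11.7% higher and 13.2% lower). The median difference was 0.00 among members and 0.00 over all genes. At least 2-fold within both controls, Slc19a1, Slc25a27, Slc44a2, Slc45a3 and Slc9a9 were higher (2.13% of all genes were) and Slc16a9, Slc25a25 and Slc3a1 lower (1.54%). The paths of the array images, per the labels, put the 2 arrays of each knockdown in a folder of their own, so that whatever sets these folders apart and the knockdown cannot be told apart. After scaling limma called 0 members (20 higher and 24 lower at an unadjusted p under 0.05, lowest adjusted p = 0.13), and without the control term 0 (11 and 11 unadjusted, lowest adjusted p = 0.216). Over all genes tested, too, each of these fits called 0. Leaving out an array left 0 calls (8 higher and 5 lower unadjusted without the Bre1a array against no knockdown, 13 and 8 without the Bre1b array against it, and 7 and 3 without the Bre1b array against mock), except without the Bre1a array against mock, where 0 were higher and 2 lower (14 and 14 unadjusted).

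**Figure D3:**
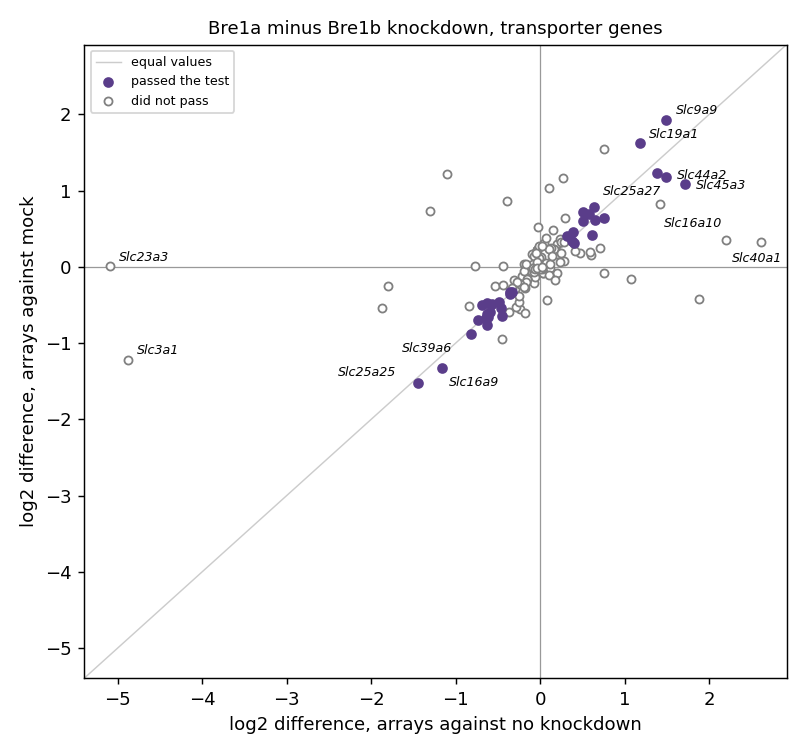
Bre1a minus Bre1b log2 difference for each of the 139 solute carrier genes, from the arrays against no knockdown (horizontal axis) and from those against mock (vertical axis). Filled points passed the limma test, open points did not, and the grey diagonal marks equal values; called genes lie near the diagonal, from -1.49 for Slc25a25 to 1.71 for Slc9a9 in the mean, whereas Slc3a1 and Slc23a3 lie far from it.

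Slc25a25 had the lowest called difference, -1.45 within no knockdown and -1.52 within mock (-1.49 ± 0.05, n = 2, limma adjusted p = 0.0372), followed by Slc16a9 (-1.24 ± 0.12, adjusted p = 0.0372). The zinc importer Slc39a6 differed by -0.85 ± 0.04 (adjusted p = 0.0372), the phosphate importer Slc20a1 by -0.71 ± 0.03 (adjusted p = 0.0372) and the glucose transporter Slc2a3 by -0.70 ± 0.09 (adjusted p = 0.0378). The highest called differences were those of Slc9a9 (1.71 ± 0.31, adjusted p = 0.0375), Slc45a3 (1.40 ± 0.44, adjusted p = 0.0461), Slc19a1 (1.40 ± 0.31, adjusted p = 0.0391), Slc44a2 (1.33 ± 0.23, adjusted p = 0.0373) and Slc25a27 (1.31 ± 0.11, adjusted p = 0.0372). Slc40a1 had 1.47 ± 1.61 and did not pass (adjusted p = 0.225). With 1 probe per gene Slc25a27 and Slc45a3 did not pass (limma adjusted p = 0.0587 and 0.0519), nor did Slc39a10, Slc30a6 and Slc7a5 (adjusted p = 0.119, 0.0522 and 0.0559). Slc45a3, Slc30a6 and Slc7a5 have 1 probe each, so their values were unchanged there and only the fit over all genes differed. Among metal importers Slc39a8 (0.64 ± 0.08, adjusted p = 0.0378) and Slc39a14 (0.70 ± 0.08, adjusted p = 0.0376) were higher after Bre1a knockdown, while Slc39a6, Slc39a10 (-0.33 ± 0.01, adjusted p = 0.0479) and the zinc transporter Slc30a6 (-0.36 ± 0.00, adjusted p = 0.0453) were lower. In the pair of heavy and light chains Slc3a2 (-0.55 ± 0.11, adjusted p = 0.0439, or 0.0519 with 1 probe per gene) and Slc7a6 (-0.63 ± 0.03, adjusted p = 0.0373) were lower and Slc7a5 (0.37 ± 0.06, adjusted p = 0.0491) higher after Bre1a knockdown. The exporter Slc30a1 did not pass (-0.15 ± 0.00, adjusted p = 0.129).

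The controls were compared as mock minus no knockdown, from the 2 arrays of each knockdown. Here 5 of 139 members were higher and 9 lower in mock cells than in cells without knockdown (10.1%, against 13.4% of all genes, 7.26% higher and 6.12% lower). At least 2-fold in both pairs of arrays, Slc24a3 and Slc9a9 were higher (1.51% of all genes were) and Slc14a1 and Slc6a4 lower (0.784%). Slc24a3, which exchanges sodium for calcium and potassium, differed by 1.84 on the Bre1a arrays and 2.14 on the Bre1b arrays (1.99 ± 0.21, n = 2, limma adjusted p = 0.0475). Slc6a4 differed by -1.89 and -1.92 (-1.91 ± 0.02), Slc14a1 by -1.39 and -1.05 (-1.22 ± 0.24) and Slc30a1 by -0.68 and -0.69 (-0.68 ± 0.00), each with adjusted p = 0.0475. Slc9a9 was higher by 1.67 ± 0.31 and Slc50a1 by 0.72 ± 0.03 in mock cells (adjusted p = 0.0475 each). All these calls were near the threshold. After scaling limma called 0 members (17 higher and 14 lower at an unadjusted p under 0.05). With 1 probe per gene it called 0 (31 and 27 unadjusted), and with genes on 3 or more arrays 0 (28 and 21). Over all genes the unadjusted counts were 972 and 940, 1847 and 1859, and 1950 and 2071 in these fits. Each of these fits also called 0 over all genes.

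**Figure D4:**
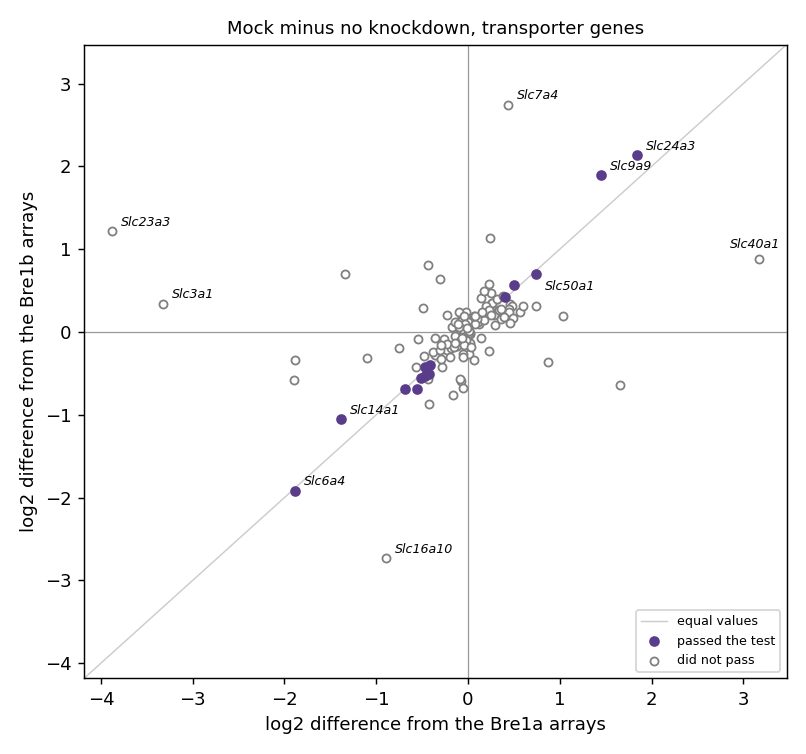
Mock minus no knockdown log2 difference for each of the 139 solute carrier genes, from the Bre1a arrays (horizontal axis) and from the Bre1b arrays (vertical axis). Filled points passed the limma test, open points did not, and the grey diagonal marks equal values; Slc24a3 and Slc9a9 sit at the upper end and Slc6a4 and Slc14a1 at the lower end of the called genes, while Slc40a1, Slc7a4, Slc3a1 and Slc23a3 lie off the diagonal.

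Several values named above thus moved with the control. For Slc30a1, Slc14a1, Slc6a4, Slc7a6 and Slc39a6 the values against mock were above those against no knockdown in both knockdowns, and for Slc9a9, Slc50a1, Slc25a1, Slc24a3 and Slc40a1 below. Slc40a1 differed by 2.03 ± 1.61 between the controls and did not pass (adjusted p = 0.15), and Slc24a3 had the largest called difference, with 0.07 and -1.78 on the Bre1a arrays and 0.61 and -1.53 on the Bre1b arrays, so that its calls as lower in both knockdowns (adjusted p = 0.0237 and 0.026, the second 0.0755 after scaling) rest on the mock arrays. For Slc39a8, Slc25a25 and Slc19a1 the controls differed by -0.02 ± 0.07, -0.05 ± 0.05 and -0.01 ± 0.31 (adjusted p = 0.84, 0.575 and 0.96), so no difference between the controls passed for them.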

How the data were processed

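Expression was measured in RIF-1 cells on 4 two-colour arrays, 2 per knockdown. The authors deposited 1 log2 ratio per probe and array, of knockdown (Cy5) over control (Cy3), per the labels. Base 2 was read from the spacing of the values: 397 to 598 spots per array lay within 0.002 of the shared value plus a base 2 logarithm of a small whole-number ratio, against 197 to 286.5 at shifted positions. How the images were read, corrected, normalized and filtered is not given in the sources used here, and intensities were not analysed here. Array medians ran from -0.033 to 0.014 and SDs from 0.984 to 1.14. Precision is limited by how few arrays there are.

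Gene names came from GEO's platform annotation: 22204 of 38784 had 1 gene symbol, 0 several and 16580 none. All 22204 were found by gene ID in the RefSeq gene table of GRCm38.p6 and 0 symbols changed. The 12958 named probes with 4 values were averaged into 8676 genes. The test was two-sided, by lmFit and eBayes of limma 3.58.1 under R 4.3.3, and its model had 1 coefficient for each knockdown and 1 for the control, leaving 1 residual degree of freedom and 1.57 prior degrees. The script was tested on simulated data. Titles number the arrays by control, so that term is a replicate block; over all genes the deviations of the arrays of the same number correlated at 0.602. Alternatives were the fit without that term, arrays centred on their medians, arrays scaled to 1 median absolute deviation (called scaling), spots at the repeated value left out, 1 probe per gene, genes with values on 3 or more arrays, and each array left out.

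Named genes were, per knockdown, up to 4 called members of each main class and up to 8 of the others with the largest mean of 1 sign on both arrays, up to 5 at each end for Bre1a minus Bre1b and 3 for the controls, and a list of fixed genes. Other genes named were chosen after their values were seen. The members, classes and lists were chosen with earlier results of these data known. The comparisons of Bre1a and of Bre1b share control cells.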

Additional observations from a re-analysis of the deposited data

Results flagged for a closer look

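Over all genes tested 40.9% were called for Bre1a, 60.4% for Bre1b and 24.9% for the difference. Opposite calls were not counted over all genes, so the count below has no general share beside it. Of the 139 members, 6 were called in opposite directions in the knockdowns and also differed by the test of Bre1a minus Bre1b. Slc25a25 had the largest such difference (-1.49 ± 0.05, 2.80-fold lower after Bre1a than after Bre1b knockdown, n = 2, limma adjusted p = 0.0372), and Slc25a27 went the other way (1.31 ± 0.11, 2.48-fold higher, adjusted p = 0.0372). Slc20a1 differed by -0.71 ± 0.03 (adjusted p = 0.0372), Slc2a3 by -0.70 ± 0.09 (adjusted p = 0.0378) and Slc6a6 by -0.59 ± 0.00 (adjusted p = 0.0375). The lysosomal nucleoside transporter Slc29a3 differed by 0.42 ± 0.05 (adjusted p = 0.0438), with 0.28 and 0.19 on the Bre1a arrays and -0.11 and -0.27 on the Bre1b arrays. With 1 probe per gene the difference of Slc29a3 did not pass (limma adjusted p of 0.05 when rounded), nor did that of Slc25a27 (0.0587). Slc29a3 has 1 probe, so its value was unchanged there and only the fit over all genes differed. After scaling the arrays to 1 spread Slc29a3 passed in neither knockdown (adjusted p = 0.0706 and 0.154). After that scaling none of these 6 differences passed (all 6 were under 0.05 unadjusted), and 0 of all genes tested passed.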

How the results depend on the processing

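The replicate number is the control, so the fit with no replicate block is the one without the control term. It called 0 members higher and 0 lower for Bre1a, 1 and 3 for Bre1b and 0 and 0 for the difference. Over all genes it called 1 and 1, 37 and 125, and 0 and 0. With the arrays scaled to 1 spread the counts were 14 and 19, 20 and 25, and 0 and 0, and 0 and 0 for the controls. Over all genes they were 849 and 1094, 1412 and 1454, and 0 and 0, and 0 and 0 for the controls. With 1 probe per gene 9 members were higher for the difference and 0 and 0 differed between controls, as with genes on 3 or more arrays (0 and 0). Over all genes 702 were higher for the difference with 1 probe per gene, and 0 differed between controls in either fit. With 1 array left out the calls ran from 0 to 1 in each direction for Bre1a, from 0 to 9 higher and 0 to 16 lower for Bre1b, and for the difference from 0 to 0 higher and 0 to 2 lower; the array left alone in its arm is then assumed to vary like the other arm. No value for the controls exists in these fits. Among 292 values of named genes, 77 lost their call after scaling, 30 with 1 probe per gene and 15 on 3 or more arrays. The 292 include values that were not called and so had no call to lose, and the share of calls lost is therefore larger. With centred arrays the class medians were: metal -0.024 for Bre1a, mitochondrial -0.019 for the difference, amino acid -0.034 and mitochondrial -0.009 for the controls. After scaling they were: mitochondrial -0.039 for Bre1a, 0.012 for the difference and 0.042 for the controls, amino acid -0.029 and -0.091 for the difference and the controls. Without spots at the shared value they were: metal -0.066 and mitochondrial -0.069 for Bre1a, mitochondrial -0.018 and -0.023 for the difference and the controls, amino acid -0.043 for the controls. With 1 probe per gene: metal -0.0075 and mitochondrial -0.016 for Bre1a, amino acid 0.14 for Bre1b, amino acid 0.058, sugar 0.46 and mitochondrial 0.043 for the difference, amino acid -0.069 and mitochondrial 0.052 for the controls. On 3 or more arrays: sugar -0.27 for Bre1b, amino acid -0.0028 for the difference and -0.015 for the controls. With 1 array left out the medians ran, for Bre1a, Bre1b and the difference, from 0.0005 to 0.097, -0.007 to 0.071 and -0.048 to 0.017 (amino acid), -0.070 to 0.16, -0.30 to -0.21 and 0.23 to 0.46 (sugar), -0.020 to 0.034, -0.041 to 0.088 and -0.037 to 0.11 (metal), and -0.032 to -0.02, -0.016 to 0.063 and 0.003 to 0.054 (mitochondrial). Signs turned for Slc22a5 with 1 probe per gene (0.19 for Bre1a and 0.21 for the difference), and with 1 array left out for Slc24a3 (from -1.78 to 0.069 for Bre1a and from -1.53 to 0.61 for Bre1b), Slc50a1 (from -0.59 to 0.15 for Bre1a) and Slc6a4 (from -0.071 to 1.82 for Bre1a and from -1.61 to 0.31 for the difference). The cause was not tested. Signal over background is not known, so no value could be judged by it.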

Other observations

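Some carriers of lysosomes and of the secretory pathway were not named above, although the counts by class include them. Slc15a4 and Slc15a3 are among the 25 amino acid carriers. The lysosomal peptide and histidine transporter Slc15a4 had -0.13 and 0.13 on the Bre1a arrays and 0.56 and 0.64 on the Bre1b arrays, where it rose (limma adjusted p = 0.0121), and its relative Slc15a3 rose in both knockdowns (0.34 ± 0.20 and 0.48 ± 0.30, adjusted p = 0.0324 and 0.0129). The lysosomal basic amino acid exporter Slc66a1 rose on the Bre1b arrays (0.18 and 0.60, adjusted p = 0.0166, or 0.0867 after scaling the arrays to 1 spread), with -0.13 and 0.43 on the Bre1a arrays (adjusted p = 0.103). Of 5 nucleotide sugar transporters 2 rose and 0 fell on the Bre1a arrays (40%, against 40.9% of all genes, with 3 and 0 at an unadjusted p under 0.05 in limma) and 2 rose and 1 fell on the Bre1b arrays (60%, against 60.4%). Slc35a5 was the one that fell there (-0.52 and -0.72, adjusted p = 0.0108), and it had 0.13 and 0.07 on the Bre1a arrays. The acetyl-CoA transporter Slc33a1 fell on the Bre1a arrays (-0.30 and -0.53, adjusted p = 0.0237) and had 0.06 and -0.20 on the Bre1b arrays (adjusted p = 0.185). Among promoter windows the letters TGATGNAA, or their reverse complement, of the amino acid response element stood in 3 of 26 windows of amino acid carriers (11.5%), those of Slc1a4 and an overlapping pair of Slc7a7, and in 1304 of all windows (3.97%), and over all transporter windows in 6 of 155 (3.87%).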
